A study of Rattus norvegicus with 30 samples.

Results

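Rat PC12 lines with an inducible fragment of mutant huntingtin were followed between the first and the fifth day of induction, a period in which the inducing drug was present throughout. PC12 cells come from a rat phaeochromocytoma, a tumour of the adrenal medulla, and make and store catecholamines. The Q74 lines 4 and 6 carry an exon 1 fragment of huntingtin with 74 glutamines fused to the Green Fluorescent Protein, and were grown with 1 μg/ml doxycycline for 5 days or for 1 day. There were 8 arrays of these cells on the 2 days, 4 on day 5 and 4 on day 1, chosen by their labels out of 30 in the whole series. Each of the 2 lines was represented on each day by 2 RNA isolations, which the study names as technical replicates, while the lines are its biological replicates. The Q23 lines 1 and 5, with the same fragment carrying 23 glutamines, and PC12 cells without a construct were treated with the drug over the same days. They supply 8 and 4 arrays and serve as background. The uninduced Q74 lines, 4 arrays on day 0, give the starting point for the change of the first day.

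An expanded glutamine stretch makes the exon 1 fragment of huntingtin prone to aggregate, and aggregated fragments gather in inclusions in the cell. By the account in the study's methods, aggregates were present in only a few of the expressing Q74 cells on day 1 and in nearly all of them on day 5. The comparison of day 5 with day 1 therefore asks what happened to mRNA levels while the fragment accumulated and drug exposure did not differ between the groups except in its length. Time in culture moved with it, and within Q74 the 2 cannot be told apart. Each construct is represented by 2 lines only, so properties of the individual lines and of the construct cannot be separated by more than these lines allow. Aggregation, cell number and survival were not measured on the arrays, and a change in the mix of cells cannot be told apart from a change in RNA per cell.

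Each Illumina RatRef-12 array gave values for 22521 probes on a scale read as natural logs, and a difference of these values is given here as a fold by taking its exponential. This understates the change of dim probes, whose values the normalization compresses. The paired isolations of a line on a given day correlated with r between 0.992 and 0.997 over all probes. Array medians lay between 4.77 and 4.78 on day 5 and between 4.78 and 4.82 on day 1 in the Q74 lines. In the tables used here probes are not paired with genes, so the results are given for probes and for sets of probes, no markers of cell identity could be checked, and no sequence is shown. The human transgene was not looked up for the same reason.

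From day 1 to day 5, 2104 of the 22521 probes changed in the Q74 lines at an adjusted p under 0.05 (limma with the line as a block, Benjamini-Hochberg over all probes), which is 9.34% of all probes. Such probes are referred to as called. Of these, 1287 rose (5.71%) and 817 fell (3.63%). All 2104 moved the same way in both lines, which follows largely from the test, where disagreement between the lines counts as spread. The typical change was small, with a median of 1.29-fold and 10th and 90th percentiles of 1.20-fold and 1.61-fold, and the largest was 4.31-fold. Among the risers the median was 1.28-fold, and 140 rose by over 1.5-fold and 26 by over 2-fold. Among the fallers the median ratio of day 5 to day 1 was 0.763, and 189 fell by over 1.5-fold and 53 by over 2-fold. On the deposited scale, more of the changes past 1.5-fold were falls, although more probes were called up than down. Scaling moved the balance of directions. Quantile normalization gave 939 rises and 888 falls, and setting the array medians equal gave 1635 rises and 646 falls. The count itself fell to 716 without the second RNA isolation, 1141 without the first, 766 without Q74 line 4 and 1238 without either Q23 line, was 1007 with isolations as samples and lines as random blocks, and was 10 when the pairing of days by line was ignored.

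In the Q23 lines over the same days 0 probes were called in the same limma fit (0%), with 718 at an unadjusted p under 0.05 (3.19% of all probes), against 4618 (20.5%) in the Q74 lines. A direct test showed that the late change differed between Q74 and Q23 for 452 probes (2.01%), 215 of them higher and 237 lower in Q74 relative to Q23, with a median difference of 1.52-fold (limma, adjusted p under 0.05). Of these 452 probes, 445 were also called within Q74. For the other probes called within Q74, a difference from Q23 was not shown at this threshold. Which direction was more frequent depended on the settings, with 153 higher and 258 lower by quantile normalization, 212 higher and 189 lower with equal array medians, and 162 higher and 133 lower with isolations as samples and lines as fixed blocks. The count of 452 was 219 when the first RNA isolation was left out and 111 when the second was, 1527 without Q74 line 6, 28 without Q23 line 1 and 55 without Q23 line 5. With isolations as samples it was 295 with lines as fixed and 76 with lines as random blocks, and it was 1 when the pairing was ignored.

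**Figure D1:**
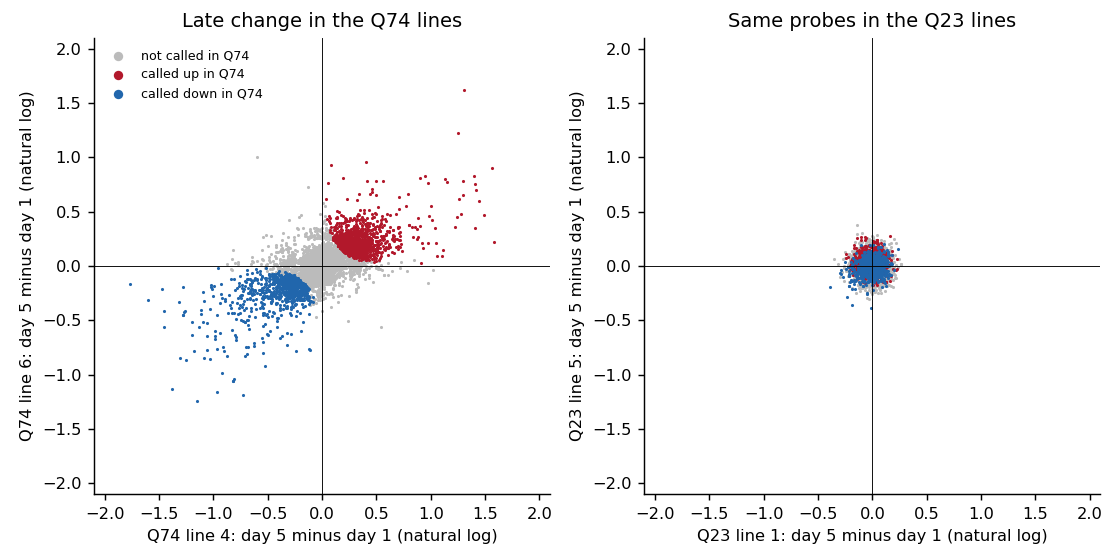
Change from day 1 to day 5 for all 22521 probes, as the difference of natural log values, in Q74 line 4 (horizontal) against Q74 line 6 (vertical) on the left and in Q23 line 1 against Q23 line 5 on the right. Each point is a probe, red if among the 1287 called up and blue if among the 817 called down in the Q74 lines. The called probes lie in the same quadrant in both Q74 lines by the nature of the test, while in the Q23 lines the same probes lie on both sides of 0, among them ILMN_1374582, which was down by -0.39 and -0.19.

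The size of the late change was not the same in the 2 Q74 lines. The 1287 risers changed by a median of 1.35-fold in line 4 and 1.23-fold in line 6. For the 817 fallers the median ratio was 0.719 in line 4 and 0.804 in line 6. Of the 2104 called probes, 1583 moved further in line 4. These probes were chosen for moving in Q74, so their medians in Q74 are a description. In the cells that are background, the risers had median ratios of 0.997 in Q23 line 1, 1.04 in Q23 line 5 and 0.971 in PC12 cells without a construct. The fallers had 1.00, 0.994 and 0.975 in the same cells. In Q23 line 5, 913 of the 1287 risers were higher on day 5, against 617 in Q23 line 1 and 337 in PC12 cells, so the small movements of the background cells had no common direction for these probes. Over all probes, 53.1%, 49.6% and 45.6% were higher on day 5 in these cells. For all probes with a mean level between 5.90 and 6.87, the median changes were 0.01, -0.01 and -0.02. The risers' medians of -0.003 in Q23 line 1 and -0.03 in PC12 cells were near these values. In Q23 line 5 their median was 0.04, above that of all probes at this level. The shift there was thus larger for the risers, and its cause was not tested.

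The sets can also be followed array by array. The median value of the 1287 risers was 7.005 and 7.042 on day 5 and 6.68 and 6.72 on day 1 in the 2 isolations of line 4. In line 6 it was 7.02 and 6.98 on day 5 and 6.77 and 6.76 on day 1. All 4 arrays of day 5 lay above all 4 of day 1, which the choice of these probes on the same arrays favours. The median of the 817 fallers was 6.30 and 6.27 on day 5 and 6.77 and 6.63 on day 1 in line 4, and 6.30 and 6.28 on day 5 and 6.53 and 6.53 on day 1 in line 6. The 4 arrays of day 5 were nearly level, and on day 1 both arrays of line 4 lay above both of line 6.

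By size alone, with no test, Q74 line 4 had 333 rises and 355 falls of over 1.5-fold from day 1 to day 5, which is 3.05% of all probes. In Q74 line 6, 106 rose and 109 fell (0.955%). In Q23 line 1 and in Q23 line 5 the number was 0 (0%) in both directions. In PC12 cells without a construct 8 probes rose and 0 fell (0.0355%). After quantile normalization line 4 had 286 rises and 400 falls, and with equal array medians 398 rises and 306 falls, so which direction was more frequent depended on the scaling. Line 6 changed likewise, with 82 rises and 118 falls and with 123 rises and 100 falls. Over 2-fold, line 4 had 66 rises and 115 falls and line 6 had 22 rises and 31 falls. Both Q74 lines thus had more such probes than either Q23 line, and an exact two-sided permutation test over the 2 lines against 2 lines gave p = 0.333, the smallest value that this design allows. On a log2 reading of the deposited values the counts would be 275 in line 4 and 84 in line 6, with 0 in the Q23 lines and in PC12 cells.

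**Figure D2:**
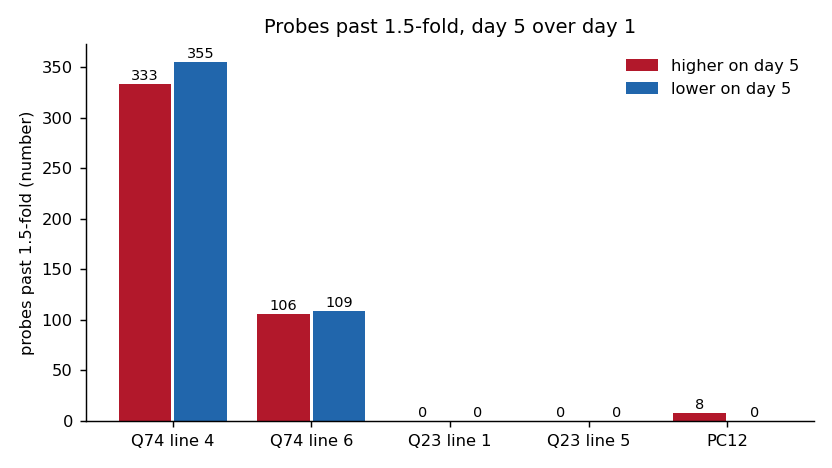
Number of probes whose mean value on day 5 was over 1.5-fold higher (red) or lower (blue) than on day 1, out of 22521, in each line and in PC12 cells without a construct. Line 4 had 333 up and 355 down, line 6 had 106 up and 109 down, and the other cells had at most 8.

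The lists of the 2 Q74 lines overlapped. There were 139 probes past 1.5-fold in the same direction in both, 51 up and 88 down, which is 20.2% of the list of line 4 and 64.7% of the list of line 6, and 2 probes past this size in opposite directions. All 139 were called in the late change, and for 133 of them the late change also differed from that in Q23. Both tests use the Q74 change by which the 139 were chosen, so these counts are a description and no separate support. A list chosen in one line can be looked at in the other line, whose arrays had no part in the choice. Of the 333 probes that rose in line 4, 310 (93.1%) also rose to any extent in line 6, where 51.5% of all probes were higher on day 5, and their median change there was 1.253-fold. Of the 355 that fell in line 4, 315 (88.7%) also fell in line 6, where their median ratio was 0.793. In the other direction, 100 of the 106 probes that rose in line 6 were higher on day 5 in line 4, with a median of 1.47-fold. Of the 109 that fell in line 6, 107 were lower on day 5 in line 4, with a median ratio of 0.499. The probes that fell in line 6 thus had the larger median fall in line 4 (0.499 against 0.572), while the probes chosen in line 4 moved less in line 6. In the Q23 lines the probes chosen in line 4 had median ratios between 0.982 and 1.03.

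Many probes past 1.5-fold in line 4 alone moved less, but in the same direction, in line 6. Of 547 probes past this size in line 4 only, 486 had the same sign in line 6 (88.8%), and of 74 past it in line 6 only, 68 had the same sign in line 4 (91.9%). Over all probes, which are not independent and share the day 1 and day 5 arrays of each line, the late changes of lines 4 and 6 correlated with r = 0.54. For the other 9 pairs among the 4 lines and PC12 cells, r lay between -0.08 and 0.16.

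Repeat RNA isolations of the same line gave similar late changes in Q74. The late change of the first isolation correlated with that of the second over all probes with r = 0.66 in Q74 line 4 and 0.49 in Q74 line 6, against 0.06 in Q23 line 1, 0.09 in Q23 line 5 and 0.03 in PC12 cells, whose paired arrays may come from separate cultures. The first isolation of line 4 gave 396 rises and 482 falls of over 1.5-fold. Of these, 394 of the risers and 474 of the fallers moved the same way in the second isolation, with 217 and 247 again past 1.5-fold. In line 6 the first isolation gave 132 rises and 136 falls, of which 126 and 129 moved the same way in the second, with 74 and 79 again past 1.5-fold. In the Q23 lines and PC12 cells, single isolations had between 9 and 33 probes past 1.5-fold, and 0 of these passed it in the same direction in the other isolation.

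The probes with the largest late changes that were called and moved the same way in both lines are given by their identifiers, 2 that rose and 2 that fell. Probe ILMN_1349269 had the largest rise. On day 5 its value was 6.52 and 6.71 in the isolations of line 4 and 7.96 and 8.06 in those of line 6. On day 1 it was 5.19 and 5.43 in line 4 and 6.30 and 6.49 in line 6. Every day 5 array lay above every day 1 array, although the lines differed in level on both days. The change was 1.30 in line 4 and 1.62 in line 6 on the natural log scale, with a mean of 1.46 (SE 0.074, 4.31-fold, adjusted p = 4.94e-09 in limma). In the Q23 lines the values lay between 5.52 and 5.74 on day 5 and between 5.49 and 5.66 on day 1, a change of 0.07 (SE 0.074), and the late change differed between Q74 and Q23 by 1.39 (adjusted p = 2.6e-06 in limma). In PC12 cells it was 6.25 and 6.30 on day 5 and 6.26 and 6.22 on day 1, near the day 1 level of line 6. From day 0 to day 1 the probe had changed by -0.03 in Q74, so its rise was seen only after day 1.

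Probe ILMN_1374039 rose by nearly the same amount in both Q74 lines. Its value on day 5 was 7.65 and 7.58 in line 4 and 8.14 and 8.24 in line 6. On day 1 it was 6.32 and 6.41 in line 4 and 6.90 and 7.03 in line 6. The groups of arrays did not overlap, and the isolations of a line lay close together. The rise was 1.248 in line 4 and 1.22 in line 6, with a mean of 1.24 (SE 0.052, 3.44-fold, adjusted p = 7.09e-10 in limma), the smallest adjusted p of all probes. In Q23 the change was 0.00 (SE 0.052), with values between 6.20 and 6.53 on day 5 and between 6.13 and 6.56 on day 1. Relative to Q23 the late change was 1.23 higher in Q74 (adjusted p = 1.82e-07 in limma). Its change in the first day was -0.07.

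Probe ILMN_1374582 had the largest fall, and it had already fallen in the first day. In line 4 its values were 7.06 and 6.78 on day 0, 6.63 and 6.43 on day 1 and 5.17 and 5.14 on day 5. In line 6 they were 6.75 and 6.81 on day 0, 6.21 and 6.55 on day 1 and 5.23 and 5.26 on day 5. The first fall was 0.40 on the natural log scale (-0.40, adjusted p = 0.00598 in limma), and the late change was -1.26 (SE 0.065, a 3.51-fold fall, adjusted p = 4.94e-09 in limma). On day 5 the values came near the array medians, where differences are compressed. This probe also moved down in the Q23 lines, by -0.39 in line 1 and -0.19 in line 5, which gave a mean of -0.29 (SE 0.065) that was not called in limma (adjusted p = 1). The late change in Q74 was lower by -0.97 than in Q23 (adjusted p = 2.21e-05 in limma). In PC12 cells it was -0.12.

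Probe ILMN_1364840 fell late without an early change. Its value on day 5 was 6.37 and 5.97 in line 4 and 6.30 and 6.20 in line 6. On day 1 it was 7.72 and 6.92 in line 4 and 7.75 and 7.23 in line 6. The first isolation read higher than the second in both lines and on both days, and the same was seen in the Q23 lines, so the isolations differed in level for this probe. The fall was present in each isolation, and all day 5 arrays lay below all day 1 arrays. The mean change was -1.20 (SE 0.057, a 3.31-fold fall, adjusted p = 2.72e-09 in limma), against -0.09 in Q23, and the late change differed between Q74 and Q23 by -1.10 (adjusted p = 2.22e-06 in limma). The first day had brought a change of -0.06.

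**Figure D3:**
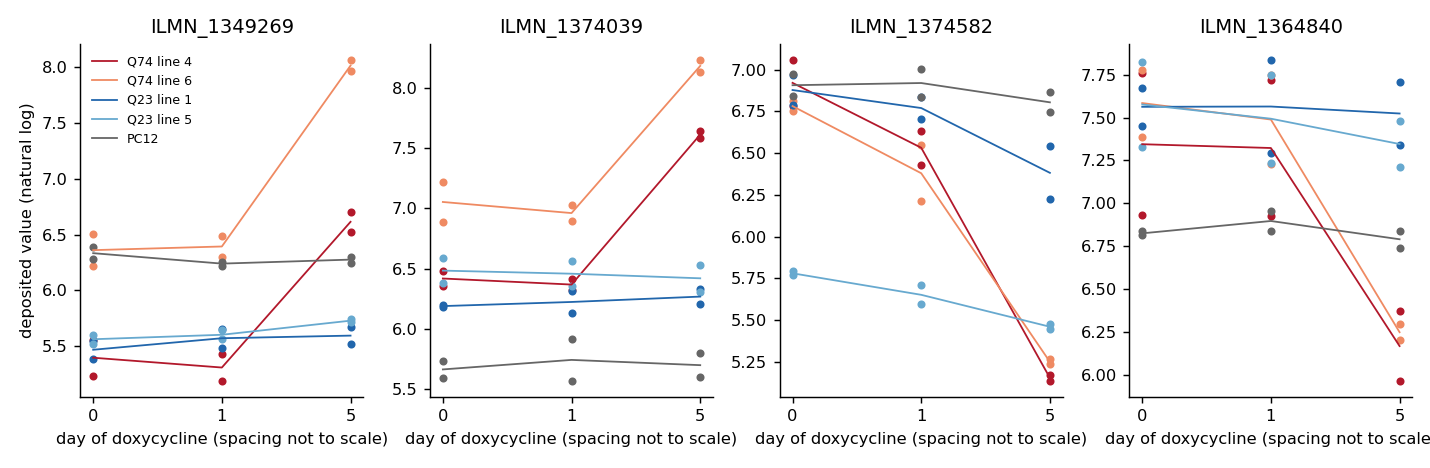
Deposited values (natural log, vertical) of the 2 probes with the largest rises (left) and the 2 with the largest falls (right) on days 0, 1 and 5 (horizontal). Each point is an array, and lines join the means of the 2 RNA isolations of a line or of PC12 cells. In both Q74 lines the means moved furthest between day 1 and day 5, the smallest of these moves being -1.13 for ILMN_1374582 in line 6, while the largest move of a Q23 or PC12 mean over these days was -0.39.

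The late calls were found mainly among probes of medium and high signal. When all probes were split into 10 equal bands by their mean level over the construct arrays, the 5 dimmest bands, below 4.78, held 64 called probes of 11261 and the 5 brightest held 2040 of 11260. The share called was highest in the eighth band, between 5.90 and 6.87, with 25.2%, and was 19.3% in the brightest band. In the dimmest band it was 0.266%. The deposited values were normalized without background correction, and differences between dim probes are compressed on this scale. Among the 5 brightest bands, rises exceeded falls by the largest number in the ninth, with 361 up and 165 down, and were nearly equal to them in the seventh, with 195 up and 189 down. Early calls had a narrower place on this scale, with 88 of 96 in the seventh and eighth bands.

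**Figure D4:**
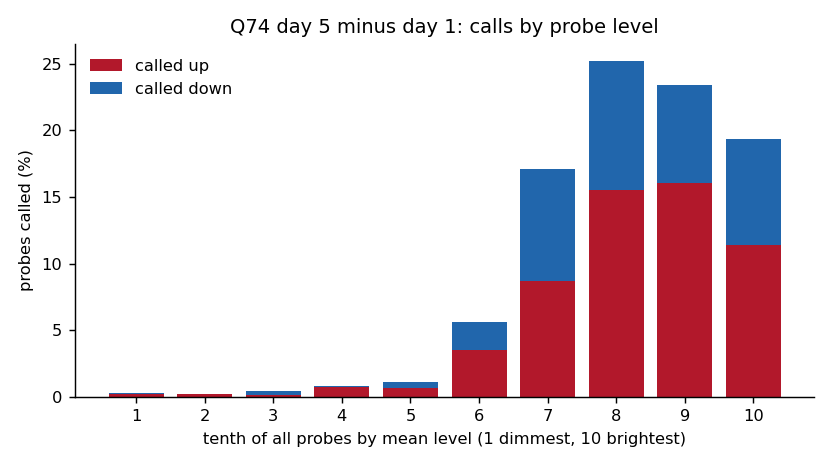
Percentage of probes called up (red) or down (blue) from day 1 to day 5 in the Q74 lines (vertical) in each of 10 equal bands of probes ordered by mean level (horizontal). The share was 0.266% in the dimmest band, 25.2% in the eighth and 19.3% in the brightest.

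The first day had brought far fewer calls than the late phase. From day 0 to day 1, 96 probes (0.426%) had been called in the Q74 lines in the same limma fit, of which 86 had risen and 10 had fallen. The median size of these changes was 1.40-fold. This list was 7 without the second RNA isolation, 46 without the first, 55 without Q74 line 4 and 49 without either Q23 line. Of the 96 early probes, 61 were also called in the late change, in either direction, where 9.34% of all probes were called. Both changes use the day 1 arrays. The median change of the first day was -0.01 for the 1287 late risers and -0.01 for the 817 late fallers on the natural log scale. Set against day 0, 1281 of the 1287 risers were higher on day 5 in line 4 and 1279 in line 6, and 750 and 755 of the 817 fallers were lower. Most late risers and fallers were therefore beyond their day 0 level on day 5 in the direction of the late change. The choice of these probes used the same day 5 arrays, which favours these counts, so they are a description.

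The 96 early probes behaved differently. By day 5, 90 of the 96 had moved in the direction opposite to that of the first day, in the mean and in both lines. The day 1 arrays used in the choice favour such moves, and no share over all probes is given for them. For 57 of the 96 the return was itself called in limma, 56 that had risen and fell and 1 that had fallen and rose. Over all probes, 3.63% were called down in the late change and 5.71% up. A further 4 were called again in the same direction, all 4 of them down on both occasions, with ILMN_1374582 among them, and 35 were not called late. The median probe lost 54.9% of its early change by day 5, a value that shares its day 1 arrays with the choice of the probes. On day 5, 91 of the 96 lay on the early side of day 0 in both lines. The probes were chosen against these same day 0 arrays, which favours such a count. It is therefore a description and does not show that the return was incomplete.

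The day 1 arrays enter both changes with opposite sign, so an error in a day 1 value adds to the early change and to the return alike. When the early change was taken from the first isolation of day 1 and the late change from the second, 32 probes were called early, 27 of them moved in the opposite direction and 21 were called back, with a median loss of 66.5%. With the isolations exchanged, 155 were called early, 100 of them moved in the opposite direction and 5 were called back, while 35 were called on in the same direction, and the median loss was 22.6%. The number and the size of the reversals thus differed with the isolation used. Days 0 and 5 stayed means of both isolations in these counts. A steady difference between isolations then adds to both changes with the same sign, which works against a reversal. The split therefore does not measure how much of the reversal came from the shared arrays. The 86 early risers were chosen on both isolations, so their counts with separate isolations are a description and no separate support. Taken in this way, their late change was downward for 85 and 81 of 86 probes in line 4. In line 6 it was downward for 84 and 85 of 86. Its median was -0.24 and -0.10 in line 4 and -0.26 and -0.19 in line 6.

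The 86 early risers and 10 early fallers are given separately. Of the 86 early risers, 85 were lower on day 5 than on day 1 and 56 were called down. Of all probes 3.63% were called down, and 10.2% of the 2603 probes with a level between 5.47 and 6.49, the range of most of the early risers. The 86 were chosen for a rise to the day 1 arrays from which the late change is taken, and the 2603 were matched on level only. This favours falls among the 86. Their median loss was 56.6% of the early rise, and 0 were called up again. Of the 10 early fallers, 5 had moved back by day 5 and 4 fell further at the threshold. With 10 probes and a shared set of day 1 arrays, this is a count and was not tested.

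The 56 probes called up and then down formed a transient set of moderate level and small amplitude. In line 4 their median value was 5.85 and 5.80 on day 0, 6.10 and 6.25 on day 1 and 5.87 and 6.01 on day 5 in the 2 isolations. In line 6 it was 5.74 and 5.83 on day 0, 6.12 and 6.19 on day 1 and 5.87 and 5.94 on day 5. The day 1 arrays were the highest in both lines, and on day 5 the medians were above those of the same isolation on day 0 in each case. The choice of these probes on the same day 0 and day 1 arrays favours both. Their median early change was 0.37 in line 4 and 0.35 in line 6, and their median late change was -0.20 in line 4 and -0.24 in line 6. In the first day the same probes had changed by a median of 0.06 in Q23 line 1, 0.08 in Q23 line 5 and 0.00 in PC12 cells. In the late phase the medians were 0.04 in Q23 line 1, -0.05 in Q23 line 5 and 0.01 in PC12 cells. For only 2 of the 56 was the late fall called against the late change of Q23. That test uses the Q74 late change by which the 56 were chosen, so the count is a description and no separate support. For the rest, a difference from Q23 was not shown at this threshold.

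**Figure D5:**
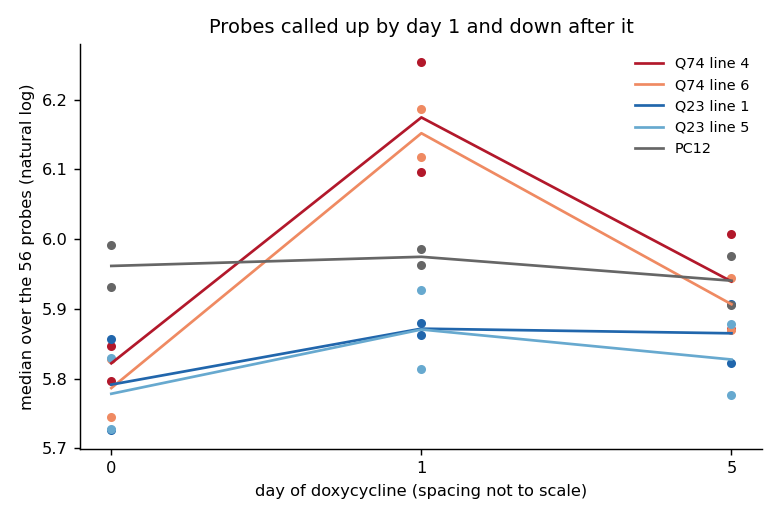
Median deposited value (natural log, vertical) of the 56 probes called up from day 0 to day 1 and down from day 1 to day 5 in Q74, on days 0, 1 and 5 (horizontal). Each point is an array and lines join the means of 2 arrays. The 4 Q74 arrays of day 1 lie between 6.10 and 6.25, above the 5.87 to 6.01 of day 5, a shape that follows in part from the choice of the probes.

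With the day 1 arrays shared, most early probes chosen by size moved back as well. In the first day 14 probes passed 1.5-fold in the same direction in both Q74 lines, 12 of them up. All 12 of the risers moved back in both lines by day 5, with 11 called down, and they lost a median of 50.8% of the rise. The 2 early fallers moved on in the same direction in the mean of the lines. Within single lines, 27 of 31 probes past 1.5-fold in the first day moved back in line 4 and 23 of 25 in line 6. With separate day 1 isolations for the early and the late change, these were 25 of 67 and 58 of 132 in line 4 and 16 of 24 and 36 of 63 in line 6. Days 0 and 5 stayed means of both isolations there. A steady difference between isolations then adds to both changes with the same sign. These counts therefore cannot show how much of the return came from the shared arrays. In the Q23 lines 0 probes had reached this size in the first day, and in PC12 cells 3 of 4 such probes moved back.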

How the data were processed

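RNA of PC12 lines was hybridised to Illumina RatRef-12 arrays. Per the authors' methods, BeadStudio supplied 1 summary value a probe, its background was left in, and VSN scaled the arrays. The deposited values were read as natural log values, since the largest, 11.1, is close to the natural log of the largest 16-bit signal (11.1), and its log2 would be 16. The base is not stated in the sources used here. Repeat isolations were averaged within line and day. In R 4.3.3, limma 3.58.1 was fitted to 12 means of the Q74 and Q23 lines with the line as a block and a day effect for each construct (4 residual degrees of freedom), two-sided, with Benjamini-Hochberg adjustment over 22521 probes and a threshold of 0.05. Days were paired by line because a line number marks the same cell line. The difference between lines 4 and 6 on day 5 correlated with that on day 1 over probes (r = 0.72). PC12 arrays, 2 a day, were taken as 1 culture and not fitted, since the series names only technical replicates for them, although their sample codes could also stand for separate cultures. The fit was tested on simulated data. Probes were named by the largest mean late change among called probes of the same direction in both lines, 2 up and 2 down. Gene lists and markers that had been drawn up could not be used without gene names. The comparisons, lists and alternatives were chosen with earlier results of these data known. The labels name no chip or date, so batches other than the isolation number were not tested. The number of lines and arrays limits the precision. Python 3.11.15 and matplotlib 3.10.9 drew the figures.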

Additional observations from a re-analysis of the deposited data

Results flagged for a closer look

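In the direct test with limma, 452 probes had a late change in Q74 that was unlike that in Q23, and the 4 probes given by identifier were among them. Their late change in Q74 minus that in Q23 was 1.39 for ILMN_1349269, 1.23 for ILMN_1374039, -0.97 for ILMN_1374582 and -1.10 for ILMN_1364840 on the natural log scale.

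One array stood apart from its group in its median value over all probes. The second RNA isolation of Q23 line 5 on day 0 had a median of 4.80, against 4.77, 4.77 and 4.77 in the other 3 arrays of uninduced Q23 lines. It is a day 0 array of the background lines and does not enter the difference between day 5 and day 1. It does enter the limma fit, and so the estimate of the spread that all 4 lines share in the tests. Of 30 groups of values examined in this way 1 was so distant, and chance alone marks about 1 in 20.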

How the results depend on the processing

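Pairing by line mattered most. With no replicate block, that is, with the pairing of days by line ignored, 10 probes were called in Q74 from day 1 to day 5 instead of 2104, 1 instead of 452 for the difference from Q23 and 4 instead of 96 from day 0 to day 1, and 3 of the 4 named probes lost their call. Taking every RNA isolation as a separate sample gave 1007, 76 and 87 with lines as random blocks and 1545, 295 and 90 with lines as fixed blocks. A fit of the Q74 lines alone gave 1238 late and 49 early calls, from 2 residual degrees of freedom, and leaving out either Q23 line is the same test. Over the fits without 1 line or 1 RNA isolation, the late count ranged from 716 to 2421, the difference from Q23 from 28 to 1527 and the early count from 7 to 74, with 7 early calls without the second RNA isolation, 46 without the first and 55 without Q74 line 4. The lone line of a construct is assumed there to vary like the others. In Q23, 0 probes were called under all 14 alternatives that give a value, not all of which are separate fits.

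The 57 reversals became 21 and 5 when the day 1 isolations were kept apart in either order, 61 after quantile normalization and 46 after centring. Probes past the size in both lines in the first day that moved back numbered 92 at a size of 25% and 0 at 2-fold, where 0 had passed. Past a 25% change from day 1 to day 5 were 2432 probes in line 4 and 1227 in line 6, against 106 in Q23 line 1, 188 in Q23 line 5 and 80 in PC12 cells, and in lines 4 and 6 past 2-fold 181 and 53, and past 1.5-fold on a log2 reading 275 and 84. From single RNA isolations the 1.5-fold counts ranged from 712 to 878 in line 4 and from 240 to 268 in line 6. Of the values of the 4 named probes under alternatives, 57 of 60 kept their direction and their call. Not all 60 are separate: adding the PC12 arrays repeats the main fit, and leaving out either Q23 line repeats the fit of Q74 alone. The probes were also chosen for the largest late changes. Signal limits what can be seen below the median level, where differences are compressed.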
